A study of Mus musculus with 16 samples.

Results

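Hedgehog signalling in the mouse adrenal gland was described here through 9 genes: the ligands Shh, Ihh and Dhh, the receptor Ptch1, the signal transducer Smo, the transcription factors Gli1, Gli2 and Gli3, and the secreted and membrane-bound inhibitor Hhip. They were picked by name, and each symbol was matched to 1 Ensembl identifier in the count table of 54838 genes. RNA of adrenal glands was sequenced in 16 mice aged 4 weeks, kept on a mixed genetic background, in 4 groups of 4 individual mice. Both sexes were represented by controls and by carriers of a gain-of-function (GOF) allele of Rspo1, the gene of the secreted WNT agonist R-spondin 1. Which promoter or Cre line drives the GOF allele, and which alleles the control mice carry, is not given in the sources used here. The study asked how gene expression depends on sex in control and GOF adrenals. The comparisons were therefore GOF against control within each sex, males against females within each genotype, and the difference between the sexes in the response to GOF.

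Hedgehog ligands are secreted proteins that bind Ptch1 on the receiving cell, which releases Smo from inhibition and lets the Gli factors act on target genes. Gli1, Ptch1 and Hhip are themselves targets, so their transcript levels are widely used as readouts of the signal, whereas Gli3 acts largely as a repressor when no ligand is present. In the adrenal gland Shh is made by steroidogenic cells of the outer cortex just below the capsule, and it acts on mesenchymal capsule cells, which express Gli1 and include progenitors of cortical cells.

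Library totals ran from 31275146 to 43003968 counts, and levels are given as counts per 1e6 counts (CPM) after scaling. Rspo1 itself lay between 3.19 and 48.2 CPM in the 8 control libraries and between 353 and 971 CPM in the 8 GOF libraries, on the side of the label in each. All 7 cortex markers were detected in every library, with summed levels of 32000 to 52400 CPM, and so were all 6 capsule markers. Transcripts of other organs stood out in 3 libraries. The summed level of 8 kidney tubule genes reached 967 CPM in one female control (number 1) and 159 CPM in another (number 3) but at most 2.40 CPM in the rest, and that of 6 liver genes reached 7710 CPM in male control 2 but 50 CPM at most in the rest.

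Of the 9 Hedgehog genes, Smo and Ptch1 had the highest and Ihh the lowest levels per transcript length. In female controls the order by mean FPKM (fragments per kilobase and per 1e6 fragments) was Smo at 51.1, Ptch1 at 29.3, Shh at 8.59, Gli1 at 3.97, Hhip at 3.06, Gli3 at 2.62, Gli2 at 1.51, Dhh at 0.682 and Ihh at 0.125. The ranges over 4 mice of Gli1 and Hhip overlapped, as did those of Hhip and Gli3, and the other neighbours in that order did not overlap. In male controls Ptch1, at 34.6 FPKM, and Shh, at 24.0 FPKM, followed Smo, at 47.2 FPKM, and the ranges of Ptch1 and Shh overlapped. In female GOF adrenals Gli3 took the third place at 4.85 FPKM, above Shh at 2.61 FPKM. Gli1, at 1.01 FPKM, then lay below Dhh, at 1.63 FPKM. In male GOF adrenals Shh kept the third place at 10.5 FPKM, while the ranges of the neighbours Gli3 and Gli1, Gli1 and Dhh, and Dhh and Hhip each overlapped, at means from 2.73 down to 1.52 FPKM.

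Under Rspo1 GOF, the levels of Shh, Ptch1, Hhip, Gli1 and Gli2 fell in both sexes, that of Smo rose slightly in both, and those of Dhh and Gli3 rose in females. Ihh did not pass the filter on low counts, so 8 of the 9 genes were tested. The threshold was an adjusted p under 0.05 in the quasi-likelihood test of edgeR, adjusted by the Benjamini-Hochberg method over 18214 genes. In females all 8 tested genes passed it, 3 higher and 5 lower in GOF, against 39.6% of all tested genes (19.0% higher and 20.6% lower). In males 6 of 8 passed, 1 higher and 5 lower, against 36.9% of all tested genes (15.2% higher and 21.8% lower). Of all genes called in males 41.1% were thus higher, but 51.2% with upper-quartile scaling factors. The 5 genes lower in both sexes compare with 14.5% of all tested genes lower in both, and Smo, higher in both, with 7.19%. The median log2 fold change of the 8 genes was -0.82 in females, where that of all genes was 0.052, and -1.04 in males, where that of all genes was 0.007. Within each sex the genes that passed were also those whose CPM ranges did not overlap between the genotypes, which held for 37.8% of all tested genes in females and 33.1% in males. Since these are bulk samples of glands, fewer cells of a type and less RNA of a gene per cell cannot be told apart in any of these values.

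**Figure D1:**
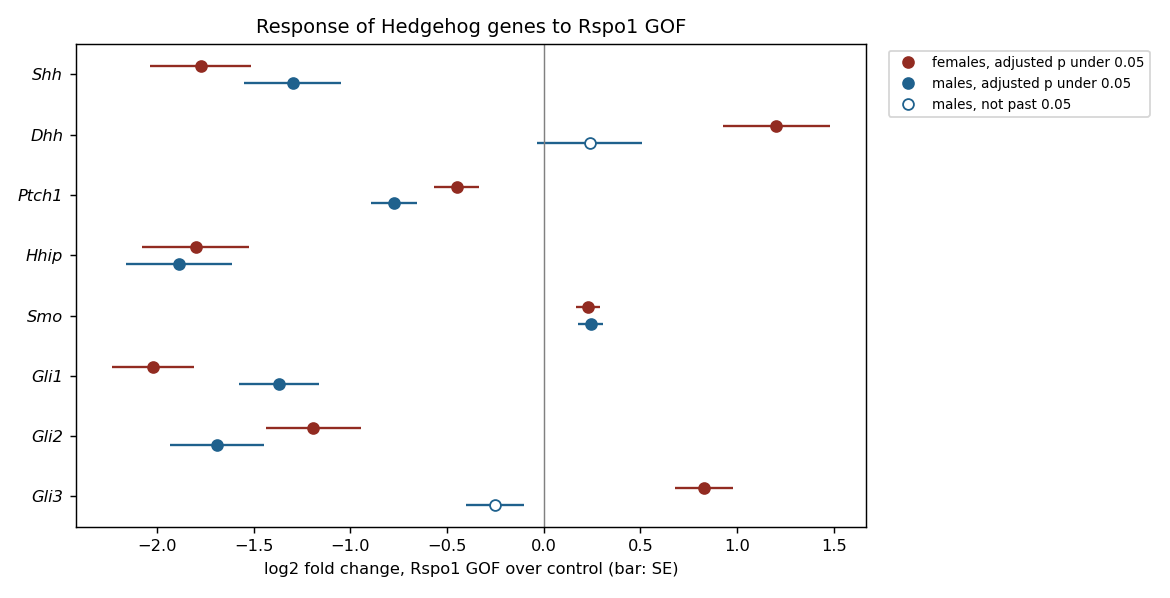
Log2 fold change of the 8 tested Hedgehog genes in Rspo1 GOF over control adrenals (x axis), in females (red) and males (blue), with the standard error as a bar; filled points passed an adjusted p of 0.05. Shh, Ptch1, Hhip, Gli1 and Gli2 lie left of 0 in both sexes, Smo lies right of 0 in both, and Gli3 lies on opposite sides, at 0.83 in females and -0.25 in males.

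Shh (ENSMUSG00000002633, chromosome 5, 28456815 to 28467256, on GRCm38; GENCODE M21 annotates all 9 genes as protein-coding) was the most abundant ligand in each group. In females it measured 33.7, 21.2, 20.2 and 26.0 CPM in the 4 controls and 6.84, 9.38, 8.21 and 5.08 CPM in the 4 GOF mice. In males the values were 64.3, 56.9, 68.0 and 90.1 CPM in controls and 41.9, 19.3, 30.5 and 21.8 CPM in GOF mice. The GOF values were below the control values of the same sex in all mice, and the male GOF values spread around the level of the female controls. Shh was 3.42-fold lower in female GOF (log2 fold change ± SE of -1.77 ± 0.260, adjusted p = 0.000112) and 2.46-fold lower in male GOF (-1.30 ± 0.252, adjusted p = 0.00103). An antisense transcript and a long noncoding RNA overlap Shh on the opposite strand, and neither exceeded 1.11 CPM in a library.

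Dhh (ENSMUSG00000023000, chromosome 15, 98891152 to 98898540), known from Schwann cells of nerves and Sertoli cells of the testis, moved the other way in females. It measured 2.05, 1.06, 1.57 and 2.26 CPM in female controls and 3.59, 3.91, 4.51 and 4.00 CPM in female GOF mice, without overlap. In males the values were 1.91, 4.50, 3.03 and 3.15 CPM in controls and 4.87, 3.91, 3.13 and 2.93 CPM in GOF mice, and these ranges overlapped. The log2 fold change was 1.2 ± 0.278 in females (adjusted p = 0.00339), and 0.24 ± 0.273 in males (adjusted p = 0.528). The difference between the sexes in this response, -0.97 ± 0.388, did not pass (adjusted p = 0.177). All 6 Schwann cell markers were lower in GOF in both sexes, with summed levels of 18.8 to 69.9 CPM falling to 4.03 to 9.20 CPM in females and 34.7 to 184 CPM falling to 6.48 to 7.94 CPM in males. The 184 CPM were those of male control 2, which also had the 4.50 CPM of Dhh, and the other male controls were at 59.2 CPM or less. Of 5 Sertoli cell markers, 1 was higher and 2 were lower in female GOF and 3 were lower in male GOF, with summed levels of 32.1 CPM or less in every library. No Schwann or Sertoli marker was at 0 in any library, but Amh was at most 0.555 CPM and Aard at most 1.34 CPM. Such levels do not show that Sertoli cells were present. The part of either cell type in the level of Dhh was not tested. Rhebl1 overlaps Dhh on the same strand and also rose in females, by a log2 fold change of 0.86 with an adjusted p of 0.0241, and how reads of the shared stretch were counted is not given in the sources used here.

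Ihh (ENSMUSG00000006538, chromosome 1, 74945315 to 74951672) was near the limit of detection. It had 19, 1, 9 and 6 counts in the female controls, 4, 8, 5 and 7 in female GOF mice, 5, 4, 2 and 4 in male controls and 2, 7, 8 and 5 in male GOF mice. Female control 1, with the 19 counts, was also the library with the highest level of kidney tubule genes, and their part in its Ihh level was not tested. As a share of the summed FPKM of the 3 ligands, Shh made up 90.1% to 94.3% in female controls and 50.9% to 66.2% in female GOF mice. In males that share was 91.4% to 96.4% in controls and 80.1% to 88.6% in GOF mice. The share of Dhh was 5.47% to 9.03% in female controls, 31.9% to 46.2% in female GOF mice, 3.30% to 8.34% in male controls and 10.5% to 18.7% in male GOF mice. Within each sex neither share overlapped between the genotypes. The shares are parts of the same sum, so a fall of Shh alone raises the share of Dhh. The level of Dhh itself did not pass in males.

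**Figure D2:**
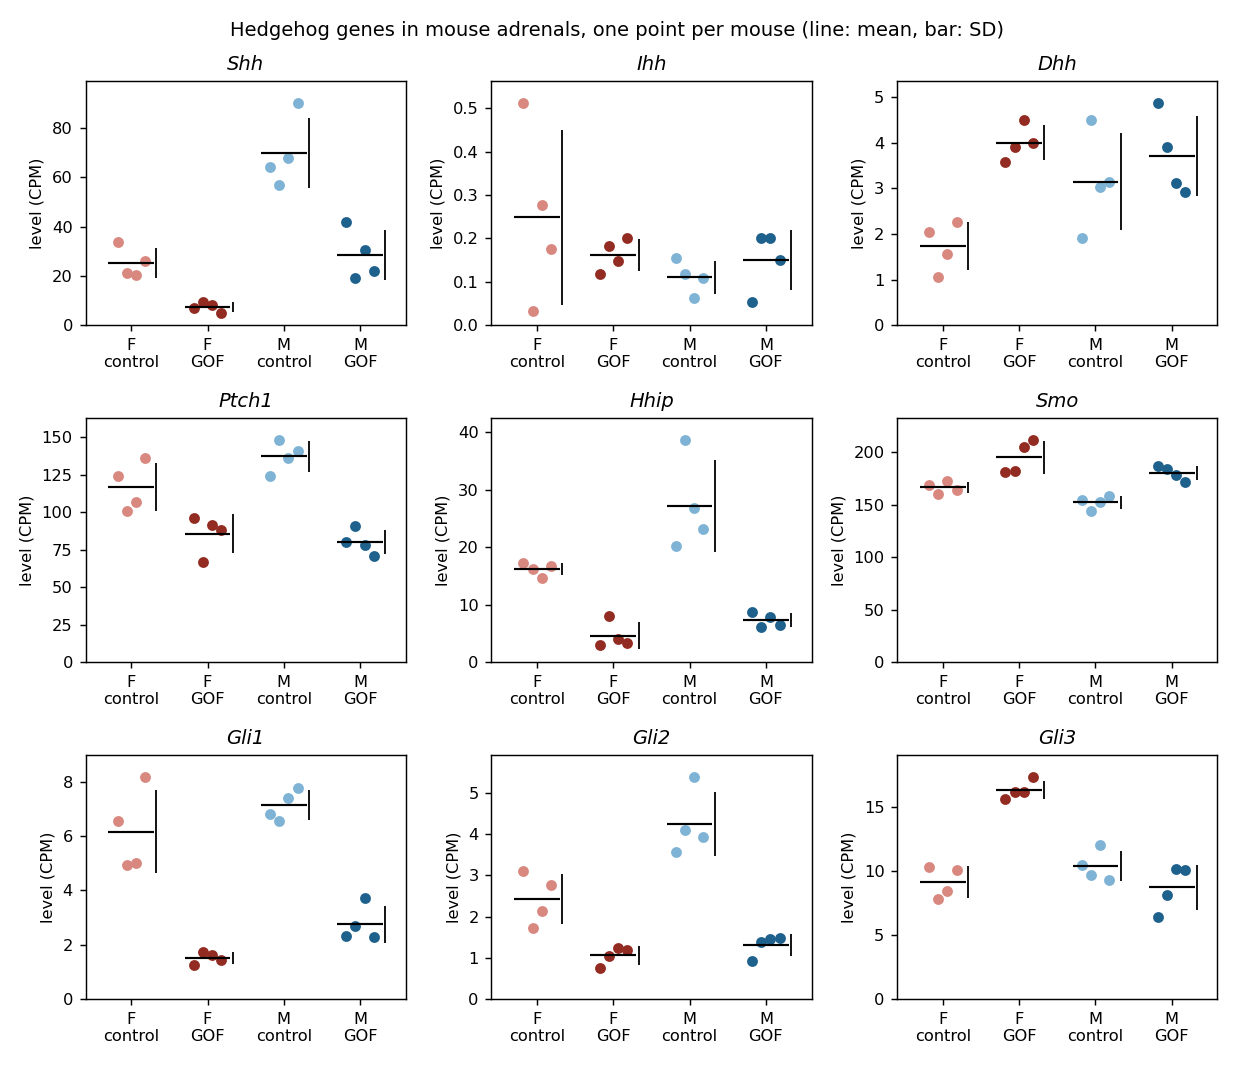
Level of each of the 9 Hedgehog genes in CPM (y axis, from 0) in each of the 16 mice, by sex (F, M) and genotype (control, GOF), with the group mean as a line and the standard deviation as a bar. Shh, Ptch1, Hhip, Gli1 and Gli2 are lower in GOF than in control mice of the same sex without overlap, and Gli3 is raised only in the female GOF column, at 15.6 to 17.3 CPM.

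Ptch1 (ENSMUSG00000021466, chromosome 13, 63508328 to 63573598), the receptor, fell least among the 5 lower genes. Its levels were 124, 101, 107 and 136 CPM in female controls and 96.3, 66.8, 91.5 and 88.4 CPM in female GOF mice. In males they were 124, 148, 136 and 141 CPM in controls and 80.0, 90.7, 78.4 and 71.2 CPM in GOF mice. The highest GOF value lay below the lowest control value in each sex, by a narrow margin in females. The log2 fold change was -0.45 ± 0.118 in females (adjusted p = 0.0075), and -0.78 ± 0.119 in males (adjusted p = 0.000136).

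Hhip (ENSMUSG00000064325, chromosome 8, 79965851 to 80058006) binds Hedgehog ligands and keeps them from Ptch1. It measured 17.2, 16.2, 14.7 and 16.8 CPM in female controls and 3.07, 8.08, 4.06 and 3.40 CPM in female GOF mice. In males it measured 20.3, 38.6, 26.8 and 23.2 CPM in controls and 8.82, 6.17, 7.93 and 6.55 CPM in GOF mice. Female GOF 2 was the highest of its group and male control 2, the library with liver transcripts, the highest of all, and the genotypes did not overlap in either sex. The levels were 3.48-fold lower in female GOF (log2 fold change -1.80 ± 0.275, adjusted p = 0.00015) and 3.69-fold lower in male GOF (-1.89 ± 0.274, adjusted p = 8.6e-05). Of the 2 ligand-binding targets, Hhip thus fell further than Ptch1 in both sexes, although the difference between the 2 genes was not tested.

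The promoter windows of Ptch1, Hhip and Gli2 are shown because these 3 genes fell in both sexes and had an entry in the RefSeq table, which covers 250 bases before to 50 after a transcription start on GRCm38.p6 and held 7 of the 9 genes. Each is written 5' to 3' on the gene's own strand, the minus strand for all 3, and the Ptch1 window covers an internal start site of the gene as GENCODE draws it.
Ptch1 chr13:63565686-63565985: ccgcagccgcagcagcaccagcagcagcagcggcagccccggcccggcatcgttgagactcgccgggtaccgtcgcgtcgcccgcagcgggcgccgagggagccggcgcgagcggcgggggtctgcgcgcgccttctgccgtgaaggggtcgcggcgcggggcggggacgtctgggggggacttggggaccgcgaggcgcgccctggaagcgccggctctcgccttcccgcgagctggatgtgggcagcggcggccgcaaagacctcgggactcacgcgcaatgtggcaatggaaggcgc
Hhip chr8:80057959-80058258: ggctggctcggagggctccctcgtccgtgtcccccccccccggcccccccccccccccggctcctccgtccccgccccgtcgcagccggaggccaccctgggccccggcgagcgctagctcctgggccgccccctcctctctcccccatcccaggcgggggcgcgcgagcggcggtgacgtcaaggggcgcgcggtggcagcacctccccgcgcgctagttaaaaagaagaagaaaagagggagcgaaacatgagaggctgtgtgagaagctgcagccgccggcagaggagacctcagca
Gli2 chr1:119053570-119053869: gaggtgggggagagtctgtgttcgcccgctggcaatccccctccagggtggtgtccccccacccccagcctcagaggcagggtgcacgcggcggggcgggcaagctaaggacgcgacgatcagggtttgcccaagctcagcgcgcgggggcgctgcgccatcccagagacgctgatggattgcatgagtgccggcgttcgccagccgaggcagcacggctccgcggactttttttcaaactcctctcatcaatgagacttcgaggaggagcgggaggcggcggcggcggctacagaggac
These windows were rich in G and C, at 76.3% for Ptch1, 73.7% for Hhip and 67.3% for Gli2, where the median over all windows was 52.7%. Both strands of the 7 windows were searched for GACCACCCA, the consensus bound by Gli factors, for CAAGGTCA, bound by the steroidogenic factor NR5A1, and for CTTTGAT, bound by the TCF/LEF factors of WNT signalling. None of the 7 held any of the 3, which occurred in 0.253%, 1.56% and 3.73% of 32851 RefSeq windows of the same length. The shorter CCACCCA, contained in the Gli consensus and added after that result was seen, was absent from the 7 windows too, against 9.3% of all windows. No letters are in capitals in the sequences for that reason.

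Smo (ENSMUSG00000001761, chromosome 6, 29735503 to 29761365), the transducer that Ptch1 holds in check, rose by a small margin. It measured 169, 160, 172 and 164 CPM in female controls and 181, 182, 205 and 211 CPM in female GOF mice. In males it measured 154, 144, 152 and 158 CPM in controls and 187, 184, 178 and 171 CPM in GOF mice. All GOF values lay above the control values of their sex. The log2 fold change was 0.23 ± 0.0621 in females (adjusted p = 0.0095), and 0.24 ± 0.0621 in males (adjusted p = 0.00705). The call in females was lost without female GOF 3 (0.16, adjusted p = 0.0727) or female GOF 4 (0.15, adjusted p = 0.0942).

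Gli1 (ENSMUSG00000025407, chromosome 10, 127329882 to 127341974), the transcriptional activator most used as a readout of the pathway, had the lowest log2 fold change of the 8 tested genes in females with all libraries. Without female GOF 2, however, it was -2.14 for Gli1 and -2.25 for Hhip. Its levels were 6.57, 4.93, 5.01 and 8.15 CPM in female controls and 1.26, 1.74, 1.64 and 1.43 CPM in female GOF mice. In males they were 6.82, 6.55, 7.38 and 7.77 CPM in controls and 2.33, 2.68, 3.73 and 2.29 CPM in GOF mice. The genotypes were far apart in each sex, and the male GOF mice were all above the female GOF mice. Gli1 was 4.06-fold lower in female GOF (log2 fold change -2.02 ± 0.212, adjusted p = 7.27e-06) and 2.58-fold lower in male GOF (-1.37 ± 0.206, adjusted p = 0.000121). Arhgap9, which overlaps Gli1 on the opposite strand, had a mean of 2.68 CPM in female controls and 4.63 CPM in female GOF mice, a log2 fold change of 0.79 that did not pass (adjusted p = 0.0681). In males it rose from 3.99 to 8.41 CPM, a log2 fold change of 1.07 (adjusted p = 0.0179). Whether the counting used strand is not given in the sources used here.

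Gli2 (ENSMUSG00000048402, chromosome 1, 118834132 to 119053619), the main activator that responds to Smo, had the lowest mean FPKM of the 3 Gli genes in each group. It measured 3.10, 1.74, 2.15 and 2.76 CPM in female controls and 0.759, 1.05, 1.25 and 1.2 CPM in female GOF mice. In males it measured 3.57, 4.09, 5.37 and 3.94 CPM in controls and 0.927, 1.40, 1.45 and 1.48 CPM in GOF mice. Every GOF mouse was below every control of its sex. The level was 2.28-fold lower in female GOF (log2 fold change -1.19 ± 0.245, adjusted p = 0.00148) and 3.22-fold lower in male GOF (-1.69 ± 0.245, adjusted p = 8.47e-05).

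Gli3 (ENSMUSG00000021318, chromosome 13, 15463235 to 15730026) was the only tested member whose response differed between the sexes past the threshold, against 4.21% of all tested genes (1.59% with a higher and 2.61% with a lower response in males). Of the genes so called 37.9% had the higher response in males, but 48.5% with RLE and 62.6% with upper-quartile scaling factors. It measured 10.3, 7.80, 8.46 and 10.1 CPM in female controls and 15.6, 16.2, 16.2 and 17.3 CPM in female GOF mice. In males it measured 10.5, 9.70, 12 and 9.32 CPM in controls and 6.46, 8.14, 10.2 and 10.1 CPM in GOF mice. The female GOF mice were above all others, and the 2 male groups overlapped. The log2 fold change was 0.83 ± 0.150 in females (adjusted p = 0.000553), and -0.25 ± 0.149 in males (adjusted p = 0.201). The response in males minus that in females was -1.08 ± 0.211 (adjusted p = 0.0108). With female control 1, female control 3 and male control 2 left out together this difference was -1.15 (adjusted p = 0.0627).

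To set the members beside the tissue that receives the signal, 6 capsule genes were followed: Nr2f2, Rspo3, Tcf21, Pdgfra, Dcn and Lum. All 6 were lower in GOF in both sexes, with median log2 fold changes of -1.86 in females and -1.98 in males. Their summed level fell from 380 to 490 CPM in controls to 122 to 178 CPM in GOF mice in females, and from 688 to 871 CPM to 196 to 234 CPM in males. Relative to the mean log2 level of these 6 genes, Gli1 differed by -0.06 between female GOF and control mice (exact permutation p = 0.629, adjusted p = 0.754, n = 4 each). In males Gli1 differed by 0.49 (exact permutation p = 0.0571, adjusted p = 0.0857). Hhip relative to the capsule genes differed by 0.00 in females (exact permutation p = 1.0) and by 0.02 in males (exact permutation p = 0.914, adjusted p = 0.997). These p-values did not pass the threshold, which does not show that Gli1 or Hhip moved exactly as the capsule genes did.

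Relative to the same capsule genes, Ptch1, Smo and Gli3 were higher in GOF in both sexes, and Gli2 was higher in females. The mean log2 level of the capsule genes itself changed by -1.9 in females and -1.87 in males. A member that stayed level or fell by less is thus higher by this measure, without a rise of its own. The difference relative to the capsule genes was 1.45 in females and 1.09 in males for Ptch1, 2.13 and 2.11 for Smo, and 2.74 and 1.60 for Gli3. The 2-sided exact permutation p was 0.0286 for each, which is the lowest value 4 mice a group can give, and the adjusted p was 0.049 over 12 tests. Gli2 differed by 0.76 in females with those same values, and by 0.21 in males (exact permutation p = 0.371, adjusted p = 0.495). The choice of reference genes bore on these ratios. Without Rspo3, the capsule gene that fell furthest, Gli1 in females was lower, at -0.34 (adjusted p = 0.049), and Gli2 in females no longer passed, at 0.49 (adjusted p = 0.0857). Without Nr2f2, Tcf21 or Pdgfra, Gli1 in males passed at 0.77, 0.66 and 0.57 (adjusted p = 0.0429 each).

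**Figure D3:**
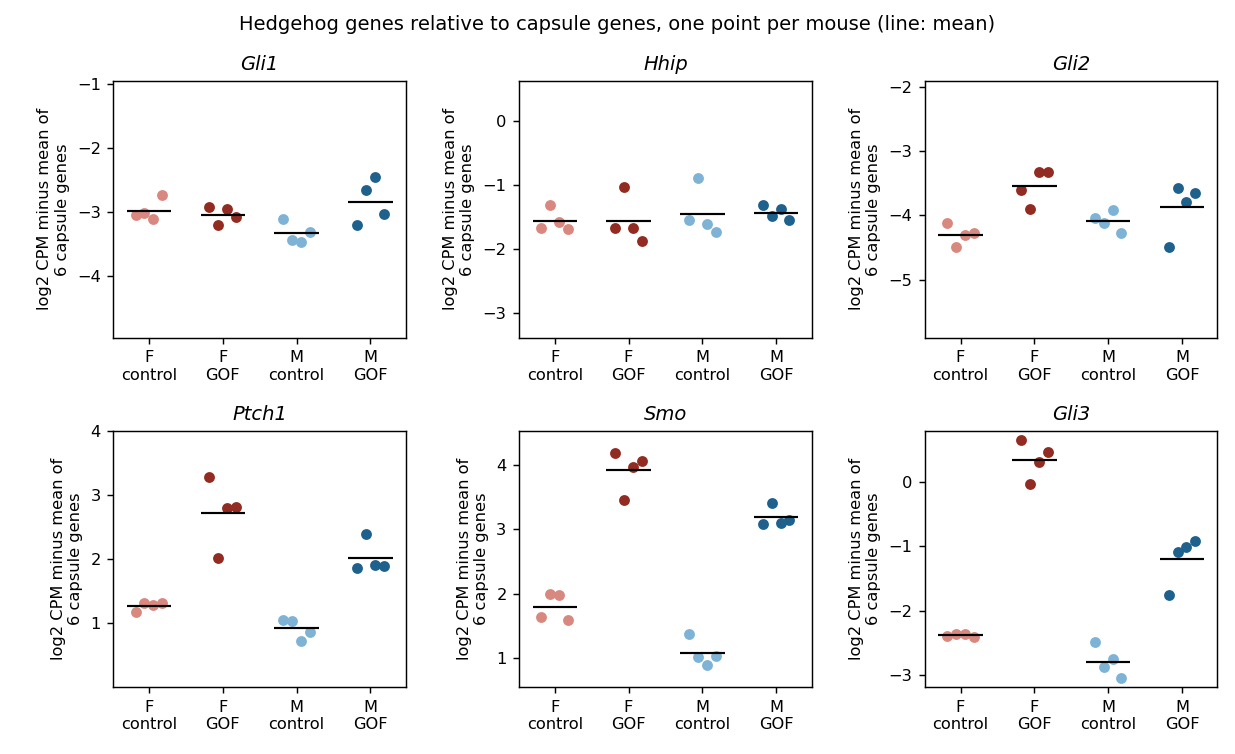
Log2 CPM of 6 Hedgehog genes minus the mean log2 CPM of the 6 capsule genes (y axis) in each of the 16 mice, by sex (F, M) and genotype (control, GOF), with the group mean as a line and axes of different range. The genotypes overlap for Gli1 and Hhip in both sexes and for Gli2 in males, and they are apart for Ptch1, Smo and Gli3, where the differences were 1.09 to 2.74.

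Shh was set beside genes of the zona glomerulosa, the outer cortical zone, in the same way. Of 5 such genes, 2 were lower and 1, Wnt4, was higher in female GOF, and all 5 were lower in male GOF, with mean log2 changes of -1.34 and -1.83. Relative to them Shh differed by -0.43 in females (exact permutation p = 0.143) and by 0.48 in males (exact permutation p = 0.114), and both had an adjusted p of 0.143. The value in females moved with the list, to 0.07 without Wnt4 (adjusted p = 0.886), -0.16 without Dab2 (0.6), -0.72 without Agtr1b (0.0571) and -0.89 without Cyp11b2 (0.0571). It passed with none of these. However, 0.0571 is the lowest adjusted p possible here unless both sexes reach the lowest exact p, so these tests could hardly pass. Markers of some other cell types also moved with the genotype. All 5 medulla genes were lower in GOF in both sexes, with summed levels of 4610 to 10600 CPM falling to 189 to 748 CPM in females and 7390 to 11000 CPM falling to 380 to 861 CPM in males. Adipocyte genes were lower for 6 of 7 in females, summed at 1450 to 1700 CPM in controls and 360 to 725 CPM in GOF, and for 7 of 7 in males, at 1800 to 3310 CPM and 248 to 300.0 CPM. Of the 6 endothelial genes, 0 passed in females and 1 was higher in males. Their median log2 fold changes were -0.22 in females and 0.24 in males, with sums of 313 to 766 CPM over all libraries. Of 7 steroidogenic cortex genes, 2 were higher and 1 was lower in each sex. The part of these cell types in the levels of the Hedgehog genes was not tested.

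Between the sexes, Shh was the member with the clearest difference. In controls 3 of 8 tested members passed the threshold, all higher in males, against 23.4% of all tested genes (13.5% higher and 9.89% lower in males). Of all genes called here 57.8% were higher in males, but 46.6% with only the compared groups in the fit. Without female control 1, female control 3 and male control 2 that share was 44.7%. The median log2 difference of the 8 genes was 0.49, and that of all genes 0.078. Shh averaged 69.8 ± 14.3 CPM in male controls against 25.3 ± 6.17 CPM in female controls (SD, n = 4), without overlap. That is 2.76-fold higher in males, with a log2 difference of 1.47 ± 0.253 (SE) and an adjusted p of 0.000939, and it passed in all alternatives. Gli2 averaged 4.24 ± 0.786 CPM against 2.44 ± 0.606 CPM, 0.80 ± 0.239 on the log2 scale with an adjusted p of 0.0259, and did not overlap. Dhh differed by 0.86 ± 0.277 with an adjusted p of 0.0369, with overlapping values. Ranges did not overlap for 25.3% of all tested genes in this comparison.

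The calls for Gli2 and Dhh between control males and females depended on single mice and on the fit, and were lost in 7 and 13 of 28 alternatives. Gli2 was lost without female control 2 (adjusted p = 0.0776), female control 3 (0.079) or male control 3 (0.0826). Dhh was lost without female control 2 (adjusted p = 0.1), female control 3 (0.0976), female GOF 4 (0.0515), male control 2 (0.126), male control 3 (0.0615) or male control 4 (0.0664). With the animal-number range as a factor the adjusted p was 0.211 for Gli2 and 0.202 for Dhh. Only range 1 holds both sexes, with female control 1 as its only female control, so sex and number range are largely confounded there. The adjusted p was 0.0851 and 0.0858 with no filter and 0.0526 and 0.107 with only the compared groups. Without female control 1, female control 3 and male control 2 it was 0.109 and 0.26. Hhip, at 27.2 ± 8.06 CPM in male and 16.2 ± 1.08 CPM in female controls, did not overlap but missed the threshold (adjusted p = 0.0541). It passed without female GOF 1 (adjusted p = 0.0446), female GOF 2 (0.0106) or male control 1 (0.0347). Gli1, Ptch1, Smo and Gli3 had log2 differences of 0.21, 0.23, -0.13 and 0.18 with adjusted p of 0.142 to 0.486. Of the 6 capsule genes, 4 were higher in control males, and 4 of 6 Schwann genes were as well. Their part in the differences of the Hedgehog genes was not tested.

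In GOF mice 3 of 8 members differed between the sexes, 2 higher and 1 lower in males, against 29.6% of all tested genes (13.3% higher and 16.3% lower). Of all genes called here 44.9% were higher in males, but 55.2% with upper-quartile scaling factors. Shh was 3.84-fold higher in males, at 28.4 ± 10.2 CPM against 7.38 ± 1.85 CPM, with a log2 difference of 1.94 ± 0.261 and an adjusted p of 9.56e-05. Gli1 was 1.82-fold higher in males, at 2.76 ± 0.669 CPM against 1.52 ± 0.217 CPM (log2 difference 0.86 ± 0.208, adjusted p = 0.00595). Gli3 was 1.87-fold lower in males, at 8.73 ± 1.79 CPM against 16.3 ± 0.715 CPM (log2 difference -0.90 ± 0.150, adjusted p = 0.000451). None of the 3 overlapped between the sexes, which held for 29.1% of all tested genes. Hhip did not pass, at 0.66 ± 0.270 with an adjusted p of 0.0788, but did without female GOF 2, the highest of its group, at 1.08 with an adjusted p of 0.00174. Dhh, Ptch1, Smo and Gli2 had log2 differences of -0.11, -0.10, -0.11 and 0.30 (adjusted p = 0.182 to 0.796). Mice were also grouped by the number in their sample title, in 4 ranges, of which only range 1 holds both sexes. The comparison of the sexes then rests on range 1, which has 1 female of each genotype. In that fit the call for Gli1 was lost (0.80, adjusted p = 0.168) and those for Shh and Gli3 were not. Sex and number range cannot be told apart outside range 1. Of the 6 capsule genes, 4 were higher in males here too, as were 5 of 6 endothelial genes (median log2 difference 0.62). Of 7 cortex genes 4 were lower in males (median -0.68), and so were 3 of 7 adipocyte genes. The part of these cell types in the differences between GOF males and females was not tested. The responses of Shh and Gli1 to GOF in males minus those in females were 0.48 ± 0.354 and 0.65 ± 0.289, and neither passed (adjusted p = 0.475 and 0.22). For Ptch1, Smo, Gli2 and Hhip these differences were -0.33, 0.02, -0.50 and -0.09 (adjusted p = 0.29 to 0.947).

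The ligand and its readout were then set side by side, a comparison chosen after their levels were seen. The log2 level of Gli1 minus that of Shh was -2.03 ± 0.28 in female controls, -2.22 ± 0.29 in female GOF mice, -3.26 ± 0.18 in male controls and -3.30 ± 0.58 in male GOF mice (SD, n = 4). Between the genotypes it differed by -0.19 in females (exact permutation p = 0.343, adjusted p = 0.457) and by -0.03 in males (exact permutation p = 0.943). Between the sexes it was lower in males by 1.24 in controls and by 1.08 in GOF mice, without overlap in either. For both the exact permutation p was 0.0286, the lowest possible, and they failed the correction over 4 tests (adjusted p = 0.0571). No smaller adjusted p is possible unless more of the 4 tests reach that lowest value.

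Of 28 other genes of the pathway, 27 were tested, and 17 passed in females (63.0%) and 10 in males (37.0%), against 39.6% and 36.9% of all tested genes. The share in males was thus near that of all genes. Among 6 genes of ligand release, 4 were higher and 2 lower in female GOF, and 1 was higher and 1 lower in male GOF. Disp2, a homolog of the transporter that releases lipid-bound ligand, fell from 70.9 to 121 CPM in female controls to 3.16 to 11.1 CPM in female GOF mice, and from 112 to 226 CPM to 6.43 to 11.5 CPM in males. Its level was 12.9-fold lower in females (adjusted p = 4.33e-06) and 17.2-fold lower in males (adjusted p = 1.45e-06). Scube3, of the family of secreted proteins that help release the ligand, was 2.53-fold higher in females, at a mean of 163 against 64.4 CPM, and 1.72-fold higher in males, at 125 against 73.0 CPM. Scube1, of the same family, measured 28.0, 26.4, 23.9 and 28.1 CPM in female controls and 85, 65.3, 85 and 92.3 CPM in female GOF mice. In males it ranged from 14.3 to 37.7 CPM in controls and from 11.9 to 20.7 CPM in GOF mice. Female GOF mice stood above all others for Scube1, as they did for Gli3. The log2 fold change was 1.62 ± 0.253 in females and -0.53 ± 0.250 in males (adjusted p = 0.112; -0.70 and 0.0324 without male control 1), and the difference of -2.15 ± 0.355 passed with an adjusted p of 0.00459.

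Among 3 coreceptors of the ligands, 1 was higher and 1 lower in female GOF, and 1 was higher and 2 lower in male GOF, against 39.6% of all tested genes called in females and 36.9% in males. The coreceptors Cdon and Boc moved in opposite directions. Cdon fell from 16.5 to 27.4 CPM to 9.43 to 17.0 CPM in females, with overlap, and from 26.7 to 42.1 CPM to 7.05 to 11.1 CPM in males. Its log2 fold change was -0.63 ± 0.209 in females (adjusted p = 0.026) and -2.0 ± 0.216 in males (adjusted p = 6.33e-06), and the difference of -1.37 ± 0.296 passed with an adjusted p of 0.0191. That difference was lost in 2 of 27 alternatives, with female control 1, female control 3 and male control 2 left out together (adjusted p = 0.0752) and with limma on log2(FPKM + 0.1) without a filter (0.0689). In females the call for Cdon was lost in 8 of 28 alternatives. These were leaving out female control 1 (adjusted p = 0.082), female control 4 (0.063) or female GOF 1 (0.075), leaving out female control 1 and male control 2 without or with female control 3 (0.0876 and 0.165), and 3 fits of limma on log2 FPKM (0.0584 to 0.0945). Boc was 1.99-fold higher in females (adjusted p = 9.76e-05) and 1.52-fold higher in males (adjusted p = 0.00427). Gas1, the third coreceptor and named after its values were seen, had a log2 fold change of -0.04 in females (adjusted p = 0.889) and -0.69 in males (adjusted p = 0.00686).

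Among 10 genes that carry the signal from Smo to the Gli factors, 6 passed in female GOF and 2 in male GOF, all higher. Of all tested genes 19.0% were higher in females and 15.2% in males, so the count in males was near the background. Kif7, the ciliary kinesin that regulates Gli proteins, was 2.01-fold higher in females (log2 fold change 1.01 ± 0.115) and 1.60-fold higher in males (0.68 ± 0.114). Evc2, a ciliary partner of Smo, was 1.72-fold and 1.34-fold higher. Gpr161, a ciliary receptor that restrains the pathway, rose from 2.58 to 3.06 CPM in controls to 6.54 to 9.45 CPM in GOF mice in females, a log2 fold change of 1.43 ± 0.201. In males its log2 fold change was 0.37 ± 0.197 (adjusted p = 0.152). The difference between the sexes, -1.06 with an adjusted p of 0.0464, was lost in 22 of 27 alternatives, with an adjusted p of up to 0.264, among them leaving out any of 13 of the 16 libraries.

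Of 9 target genes known from other tissues, 8 were tested, and 3 passed in each sex (37.5%), all lower. Of all tested genes 39.6% passed in females and 36.9% in males, so the share of these targets passing in either direction was near the background. The share of targets that was lower, 37.5%, compares with 20.6% of all tested genes in females and 21.8% in males. Ccnd1, which encodes cyclin D1, was 1.54-fold lower in females (adjusted p = 0.00137) and 1.60-fold lower in males (adjusted p = 0.000732). Ccnd2, which encodes cyclin D2, was 1.87-fold lower in females (adjusted p = 3.06e-05) and 1.56-fold lower in males (adjusted p = 0.000461). Both also answer to other signals. Between the sexes in controls 9 of the 27 other pathway genes passed (33.3%), all higher in males, against 23.4% of all tested genes (13.5% higher in males). That number was 0 with the animal-number range as a factor, 3 without female control 1, female control 3 and male control 2, 5 without female control 3 alone or with no filter, and 11 with DESeq2. In GOF mice 9 of the 27 passed as well, 4 higher and 5 lower in males, against 29.6% of all tested genes, and 3 passed with the number range as a factor.

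**Figure D4:**
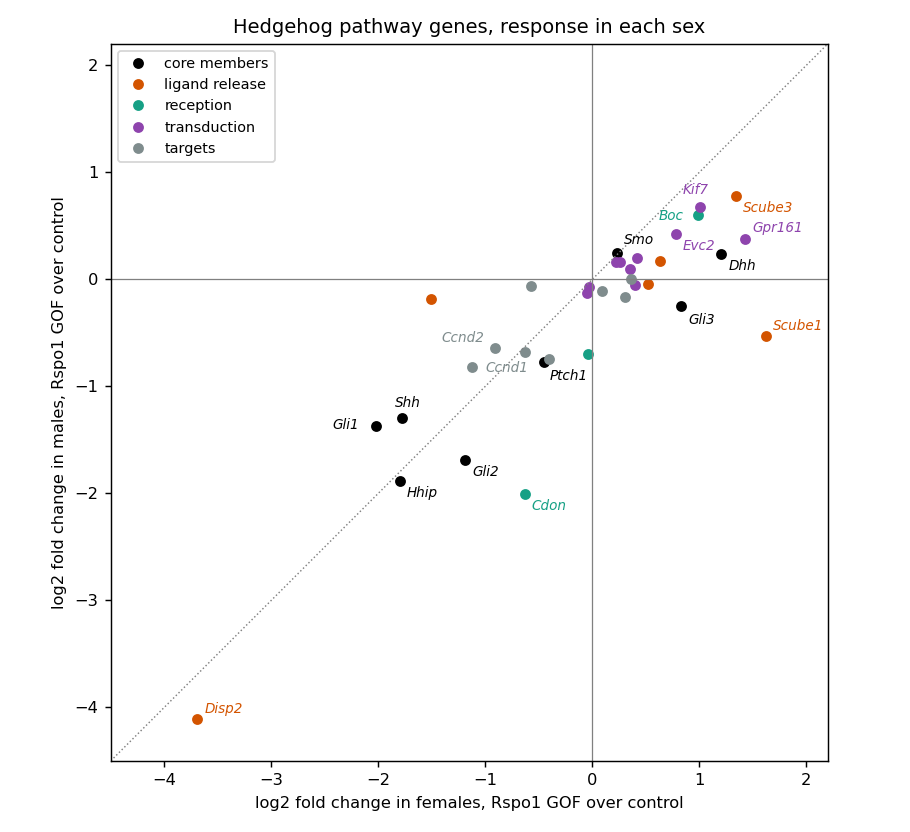
Log2 fold change in Rspo1 GOF over control females (x axis) against the same in males (y axis) for the tested Hedgehog members (black) and 27 other pathway genes, coloured by role, with equal change on the dotted line. Disp2 lies furthest down in both sexes, at -3.69 and -4.11, and Scube1 and Gli3 lie right of 0 in females and below 0 in males.

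The genes whose levels over the 16 libraries were most like those of Shh, among 13589 genes with a mean of at least 1 CPM, were Steap2, Ly6d, Cldn11, Col16a1 and Vasn, with Pearson r of log2 CPM of 0.982, 0.980, 0.973, 0.969 and 0.967. Once each group's mean was removed, r for these genes was 0.776, 0.844, 0.817, 0.664 and 0.694. Most like Gli1 were Smpx, Wfdc1, Plagl1, Prelp and Npnt, with r from 0.967 to 0.970, and from 0.586 to 0.677 without the group means. Between Gli1 and Shh themselves r was 0.836, which put Shh at rank 1095 for Gli1, and 0.408 without the group means. Of the 6 capsule genes, Rspo3 was nearest to Gli1, at rank 14 with r of 0.960, and Nr2f2 furthest, at rank 685 with r of 0.876. Hhip was at rank 143 for Gli1 with r of 0.929. Without the group means r with Gli1 fell to 0.531 for Rspo3, 0.255 for Nr2f2 and 0.291 for Hhip. For Shh the nearest capsule gene was Nr2f2, at rank 35 with r of 0.938 (0.566 without the group means), ahead of Gli1 at rank 537. These values are descriptions over libraries that share the 4 groups, so the differences between the groups enter each r.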

How the data were processed

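Total RNA of adrenal glands was sequenced from 16 mice as 150 bp paired reads from NEBNext Ultra libraries, with an RNA integrity cut-off of 7.0, per the labels' protocols. The authors deposited read counts for each Ensembl gene, unnormalized, and FPKM values, which scale these to library total and gene length. The length used was the mean over the gene's GENCODE M21 transcripts, within 1 bp, for 97.8% of 34180 genes. The submitters' processing notes name Bowtie2 2.2.3, TopHat2 2.0.12, HTSeq 0.6.1 and DESeq 1.18.0; the build, annotation and strand setting are not given in the sources used here. Symbols and coordinates come from GENCODE M21 (54809 of 54838 identifiers matched).

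Counts were tested with edgeR 4.0.16 in R 4.3.3 (robust quasi-likelihood, TMM, filterByExpr, 1 mean per group over all 16 libraries), which kept 18214 genes, with Benjamini-Hochberg adjustment over all of them and a threshold of 0.05. Ratios to capsule and glomerulosa genes used log2 CPM with a prior count of 2 and 2-sided exact permutation tests. The members and lists were chosen with earlier results of these data known. All 9 members are named, and of the other lists a gene was named where it passed in both sexes with at least 1 CPM, where its sex difference in response passed, or, for at most 3 per list, with values that did not pass. Disp1, Gas1, and the genes besides Gli2 with a single mouse apart from its group, fall outside this rule and were named after their values were seen. For likeness the 5 highest r were named, leaving out clone names. Further pathway genes are not reported here. Replicates are individual mice, numbered in accession order, and no 2 libraries of a group agreed within sampling noise (chi-square per degree of freedom of at least 26.8). The alternatives were DESeq2 1.42.0, RLE or upper-quartile factors, only the compared groups in the fit, no filter, a minimum of 10 counts per library, limma 3.58.1 on log2 FPKM with pseudocounts of 1 and 0.1, animal-number range as a factor, left-out libraries, and a log2 fold threshold of 1. Scripts were tested on simulated data. Figures used Python 3.11.15 with matplotlib 3.10.9.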

Additional observations from a re-analysis of the deposited data

Results flagged for a closer look

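For each of the 37 Hedgehog members and pathway genes, the 4 groups of 4 mice were searched for a single mouse apart from its group, and 11 of 148 groups held one. Among the members this was Gli2, with male GOF 1 at 0.927 CPM and the other 3 male GOF mice between 1.40 and 1.48 CPM. Gas1 was at 44.8 CPM in female GOF 2, where the other 3 lay between 74.8 and 77.6 CPM, and Bmp4 at 6.89 CPM in female GOF 1, where they lay between 4.57 and 4.80 CPM. Bcl2 was at 23.0 CPM in male control 2, the library with liver transcripts, and between 12.2 and 13.6 CPM in the other 3. Hhat was at 9.83 CPM in female control 1, below 12 to 12.3 CPM, and Evc at 33.1 CPM in male control 4, above 28.9 to 29.3 CPM. Spop stood apart in 3 groups, at 262 CPM in female GOF 2 (others 287 to 292 CPM), 355 CPM in male control 1 (282 to 295 CPM) and 226 CPM in male GOF 3 (310 to 320 CPM). At very low levels, Foxl1 was at 0.215 CPM in female control 3, below 0.645 to 0.675 CPM, and Foxf2 at 0.0967 CPM in female control 2, with the other 3 at 0. Genes other than Gli2 and Gas1 are named here for these values alone. Chance sets apart about 1 in 20 such groups.

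The response to Rspo1 GOF differed between the sexes for 4 of the 35 tested genes (11.4%) by the interaction term of edgeR's model, against 4.21% of all tested genes. In males minus females the log2 difference was -1.08 for Gli3, -2.15 for Scube1, -1.37 for Cdon and -1.06 for Gpr161, with adjusted p of 0.0108, 0.00459, 0.0191 and 0.0464. Gli3, Scube1 and Gpr161 rose in females and did not pass in males, whereas Cdon was lower in both sexes and lower by more in males, with its call in females lost in 8 of 28 alternatives. Of 27 alternatives, the difference was lost in 22 for Gpr161 (adjusted p up to 0.264), in 2 for Cdon (up to 0.0752), in 1 for Gli3 (0.0627, without the 3 libraries with kidney or liver transcripts) and in none for Scube1 (up to 0.0254).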

How the results depend on the processing

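The fall of Shh, Ptch1, Gli1, Gli2 and Hhip in both sexes and the rise of Dhh and Gli3 in females kept their calls in all 28 alternatives with a threshold on the adjusted p alone, as did the higher level of Shh in males of either genotype. With the log2 fold threshold of 1, Ptch1 and Smo were lost in both sexes and Gli3 in females. No result changed direction while called. The number of members called moved from 8 to 5 in females, from 6 to 4 in males and from 3 to 1 between the sexes in GOF with the fold threshold. Between the sexes in controls it was 5 with DESeq2 and 1 with no filter, the number range as a factor, the 3 libraries with kidney or liver transcripts left out or the fold threshold, and 1 to 4 with single libraries left out. For the difference in response it was 0 without those 3 libraries (Gli3 adjusted p of 0.0627). Without them 4554 genes were called in females, 1648 between the sexes in controls and 175 for the difference in response. With the fold threshold the counts were 3121 in females, 3366 in males, 1405 and 1814 between the sexes in controls and GOF, and 381 for the difference in response. With the number range as a factor they were 1311, 1336 and 440 for the last 3. The count for the difference in response, 766, was 1432 with DESeq2, 408 with no filter, 464 with limma on log2(FPKM + 0.1) and no filter, 448 without female control 1 and male control 2, and 377 to 953 with single libraries left out. Single libraries moved the count to 2650 to 4881 between the sexes in controls. Shh relative to glomerulosa genes in females was 0.067 without Wnt4.

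The causes of these moves were not tested. Where libraries were left out, fewer samples and the content of those libraries cannot be told apart. Gli1 between the sexes in GOF was lost with the number range as a factor (adjusted p of 0.168), and Smo was lost in females with no filter (0.0695) and in males without the 3 libraries (0.0574). Of the genes called in males, 41.1% were higher, but 51.2% with upper-quartile factors and 60.1% with limma on log2(FPKM + 1), and in females the share moved from 48.0% to 58.1% with the latter. Between the sexes in controls it moved from 57.8% to 44.7% without the 3 libraries. Limma on log2(FPKM + 0.1) moved the median of all genes to 0.103 in females, 0.131 in males and 0.102 between the sexes in GOF. Ihh was too low to be tested at this depth. No paired analysis was possible because the labels carry no replicate numbers.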
